A study of Mus musculus with 8 samples.

Results

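The transcripts described here are 10 mRNAs of very long coding sequence whose products have no main role in chromatin: *Huwe1*, *Ubr4*, *Herc2*, *Birc6*, *Dync1h1*, *Macf1*, *Utrn*, *Ahnak*, *Mdn1* and *Prkdc*. They were chosen by name, to set coding length beside recovery with Flag-tagged eIF4A2. Each name matched 1 of the 52550 gene rows of the count table. All 10 were among the 10754 genes with a level of at least 1 CPM in every input, which were the genes tested. CPM scales the tags of a gene to the total of gene reads of its library.

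The data are RNA immunoprecipitations with sequencing (RIP-seq). An antibody against the Flag tag pulls down a tagged protein with its RNA, and that RNA is sequenced beside input RNA that never met the antibody. Mouse embryonic stem cells (ESCs) deleted for *Eif4a2* carried either the empty vector (EV), without Flag-tagged eIF4A2, or a vector for Flag-tagged eIF4A2. The latter is Eif4a2flag in the labels, and the paper names the full-length isoform. An input and a RIP from each made 4 groups of 2 libraries: input EV, input Eif4a2flag, RIP EV and RIP Eif4a2flag. All cells were thus *Eif4a2* KO, carried the Rex1-GFPd2 reporter and Cas9, and grew with 1.5 µM CHIR99021, 0.5 µM PD0325901 and 10 ng/mL LIF. Rescue lines were clones with an integrated transgene, and the paper takes 2 clones as their replicates. The origin of the EV replicates was not given, so p-values that rest on them may measure technical spread alone. For RIP Eif4a2flag replicate 2, a field of the labels names Eif4a3 and the other fields name Eif4a2.

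eIF4A2 is a DEAD-box RNA helicase. With eIF4E and eIF4G it can form eIF4F, the complex that binds the cap of an mRNA and opens structure in its 5′ leader so that ribosomes can load, and it has also been linked to CCR4-NOT and repression. Once loaded, ribosomes fill a coding sequence along its length, so a giant coding sequence holds many ribosomes at a time. The 10 proteins serve unrelated tasks. HUWE1, UBR4 and HERC2 are ubiquitin ligases, and BIRC6 is an inhibitor of apoptosis that also conjugates ubiquitin. DYNC1H1 is the motor chain of cytoplasmic dynein, MACF1 ties actin to microtubules, utrophin (*Utrn*) ties actin to the membrane, and AHNAK is a scaffold under the plasma membrane. MDN1, or midasin, strips assembly factors from the maturing large ribosomal subunit, and PRKDC is the kinase of DNA end joining. The last 2 work mainly in the nucleus, so the name cytosolic does not hold for all 10.

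In mm10 (GRCm38) with the GENCODE annotation, *Mdn1* (32657119 to 32775217, plus strand), *Macf1* (123349633 to 123684360, minus strand) and *Ubr4* (139352609 to 139489588, plus strand) lie on chromosome 4. *Herc2* lies on chromosome 7 (56050196 to 56231800, plus), *Utrn* on chromosome 10 (12382188 to 12869365, minus) and *Dync1h1* on chromosome 12 (110601452 to 110666945, plus). *Prkdc* lies on chromosome 16 (15637866 to 15842235, plus), *Birc6* on chromosome 17 (74528295 to 74703356, plus), *Ahnak* on chromosome 19 (8989284 to 9076914, plus) and *Huwe1* on chromosome X (151800807 to 151935417, plus). Their longest annotated coding sequences ran from 10290 bases (*Utrn*) to 22065 bases (*Macf1*), with a median of 14577 bases, against a median of 1377 bases over 10087 tested protein-coding genes. The longest annotated transcripts (median 15514 bases against 3423 bases for all) and exon numbers (median 84.5 against 9) were also far higher. GC content and UTRs were less extreme. GC content of the transcript lay between 43.3% and 54.5% (median of all, 50.8%), and the 3′ UTR of the transcript used reached 2000 bases at most, with a median of 752 bases against 960 bases for all. The *Birc6* transcript used has no annotated UTR.

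The gene structures fell into 2 kinds. Of the 10, 9 are split into 73 (*Birc6*) to 106 (*Ubr4*) exons, while *Ahnak* has 5, and a single exon of 17498 bases holds nearly its whole coding sequence. That exon is built of repeats. Runs of 30 bases were counted in *Ahnak* only, as it alone of the 10 had repeated runs of 50 bases. The most frequent in-frame run of 30 bases recurs 14 times between positions 4141 and 13684 of the *Ahnak* coding sequence. Its first copy lies in exon 5, at chr19:9005494-9005523 on the plus strand of GRCm38:
Ahnak repeat: aaaatgcccaagttcagcatgcctggcttc
Of all runs of 50 bases in the *Ahnak* transcript, 21.3% occur more than once, and none do in the other 9. The libraries, however, sample the 3′ end of polyadenylated RNA (QuantSeq), where 1 transcript gives about 1 tag whatever its length. In the last 500 bases of each of the 10 transcripts, none of the 451 runs of 50 bases occurred in another annotated gene. The *Birc6* transcript used ends with its coding sequence, so this check did not cover a 3′ UTR of *Birc6*. Exons of *Dync1h1* overlap the antisense gene *Gm17111* by 48 bases, 1709 bases from the 3′ end. The other overlaps (*Birc6*, *Dync1h1*, *Huwe1* and *Ubr4*) lie 65091 bases or more from it. With the strand setting of the counting not given, reads of *Dync1h1* and *Gm17111* cannot be told apart there.

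Gene reads per library numbered 3204369 to 7269765 in inputs, 2044853 and 3345151 in RIP EV, and 11206420 and 9976801 in RIP Eif4a2flag. The RIP EV libraries stood apart. Reads outside annotated exons made up 45.8% and 29.7% of them, against 8.58% to 17.6% of inputs and 3.30% and 4.13% of RIP Eif4a2flag libraries. The biological coefficient of variation between their 2 replicates was 171%, against 23.1% to 30.1% in the other groups, and 1961 of 10754 tested genes had no read in either. All 8 ESC markers passed 1 CPM in every input, as did 3 of 4 markers of formative or primed epiblast, and none of 5 fibroblast and 4 primitive endoderm markers did. *Pou5f1*, a pluripotency factor among the ESC markers, had 0 reads in both RIP EV libraries. Pairs of replicates differed well beyond sampling noise and were counted as separate samples.

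Together the 10 transcripts took 0.515% and 0.778% of gene reads in the RIP Eif4a2flag libraries (summed levels of 5154 and 7777 CPM). Sums of 1150 and 772 CPM in input EV, of 1510 and 1162 CPM in input Eif4a2flag, and of 1434 and 1276 CPM in RIP EV stood beside these. The lower of the 2 sums in Flag-eIF4A2 RIPs was 3.41 times the highest sum in the other 6 libraries. Levels in CPM are shares of a library and do not say how much RNA came down with the antibody.

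**Figure D1:**
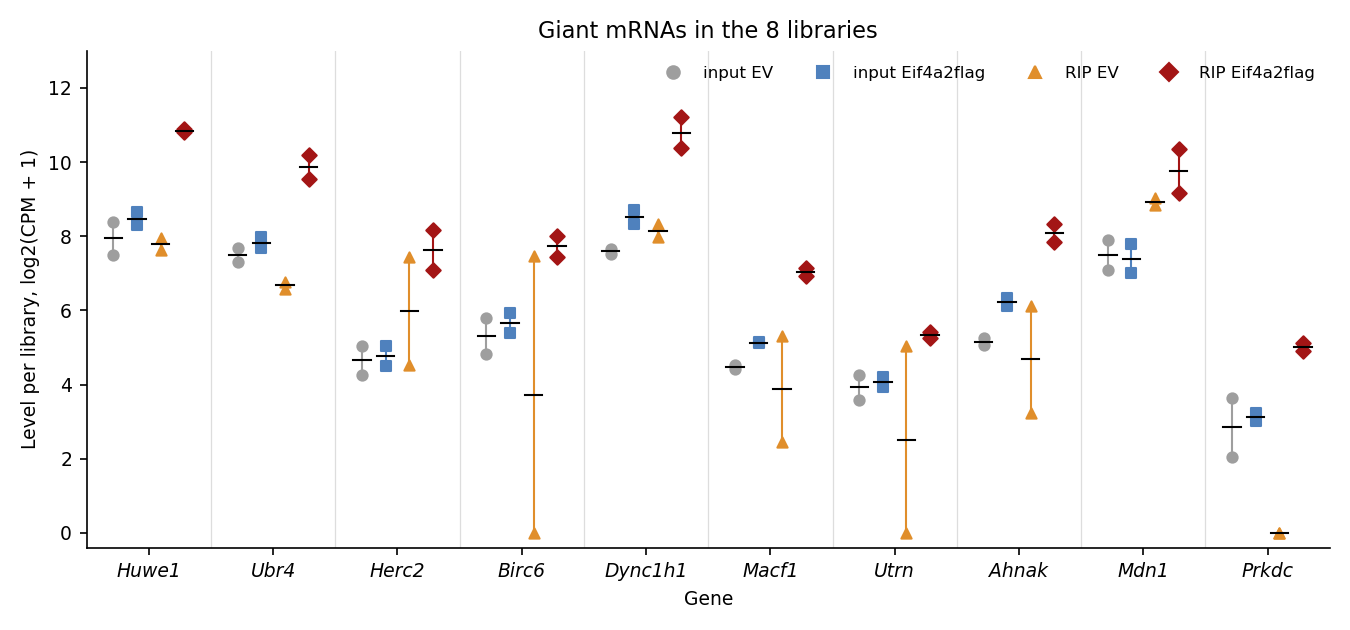
Level of each of the 10 giant mRNAs, as log2(CPM + 1), in the 8 libraries; each point is 1 library, colour and shape give the group, the line joins the 2 replicates, and the black bar is their mean. RIP Eif4a2flag lay above both of its inputs for all 10, while RIP EV replicates lay far apart for *Herc2*, *Birc6*, *Macf1*, *Utrn* and *Ahnak*.

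The first comparison asks which transcripts made up more of the RIP than of the input in Eif4a2flag cells. Antibody and bead background is part of these RIPs too, and the comparison with RIP EV follows below. All 10 giant mRNAs had higher levels in both RIP Eif4a2flag libraries than in both Eif4a2flag inputs, with log2 fold changes from 1.01 (*Utrn*) to 2.68 (*Herc2*). Such separation was seen for 31.7% of all tested genes. The median log2 fold change was 1.78 for the 10 and 0.02 for all tested genes.

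For the ubiquitin ligase gene *Huwe1*, levels were 399 and 312 CPM in the Eif4a2flag inputs and 1779 and 1886 CPM in their RIPs. The RIP replicates nearly coincided, and the group mean was 1833 ± 75.9 CPM (SD, n = 2) against 355 ± 61.3 CPM (SD, n = 2). The log2 fold change was 2.06 (standard error 0.39). *Ubr4* counted 253 and 203 CPM in inputs and 747 and 1157 CPM in RIPs, a log2 fold change of 1.76 (standard error 0.35). *Herc2* counted 31.8 and 21.8 CPM in inputs and 136 and 286 CPM in RIPs. Its log2 fold change of 2.68 (standard error 0.98) ranked 14th of all 10754 tested genes, although the replicates of its RIP differed from each other by more than those of *Huwe1*. *Birc6* counted 59.5 and 41.1 CPM in inputs and 173 and 258 CPM in RIPs, a log2 fold change of 1.79 (standard error 1.88).

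Among the motor, cytoskeletal and scaffold genes, *Dync1h1* was recovered most unevenly. It counted 421 and 321 CPM in inputs and 1326 and 2362 CPM in RIPs, a log2 fold change of 2.01 (standard error 0.38). Both RIP values still lay far above both inputs. *Macf1* counted 34.4 and 33.7 CPM in inputs and 121 and 142 CPM in RIPs, a log2 fold change of 1.64 (standard error 0.93). *Utrn* counted 17.3 and 14.3 CPM in inputs and 41.6 and 37.3 CPM in RIPs. It has the shortest coding sequence of the 10, and its log2 fold change of 1.01 (standard error 1.63) was the lowest of the 10, above that of 88.4% of tested genes. *Ahnak* counted 68.6 and 80.3 CPM in inputs and 228 and 320 CPM in RIPs. Its log2 fold change was 1.58 (standard error 0.87).

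*Mdn1*, of ribosome assembly, counted 219 and 127 CPM in inputs and 568 and 1299 CPM in RIPs, and its log2 fold change was 2.13 (standard error 0.56). The replicates differed by more than 1.5 times in input and in RIP alike. *Prkdc* was the least abundant of the 10 by tags, with 7.14 and 8.35 CPM (33 and 52 reads) in inputs and 33.6 and 29.1 CPM in RIPs, and its log2 fold change was 1.71 (standard error 0.89). The order among the 10 is not resolved, since the standard errors are as large as most gaps between them. Along coding length the 10 had no order of their own (Spearman's rank correlation of −0.01 across these 10 genes, a description).

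Whether these changes passed a test differed between fits, by the libraries entered and by the tool. With all 8 libraries in the fit, 0 of the 10 passed (adjusted p of 0.170 to 1.0 from edgeR's quasi-likelihood test, Benjamini-Hochberg adjustment), and 0% of all tested genes were called higher. At an unadjusted p below 0.05, 5 of the 10 were higher, as were 331 of 10754 tested genes. With only the 4 libraries compared, 10 of 10 passed (adjusted p from 0.00402 for *Huwe1* to 0.0451 for *Utrn*, edgeR), where 8.44% of tested genes were called higher. Leaving out the RIP EV group alone gave 9 of 10, all but *Utrn*, against 7.32% of tested genes. DESeq2 on 8 libraries called *Huwe1*, *Dync1h1*, *Ubr4* and *Mdn1*, against 2.55% of tested genes.

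**Figure D2:**
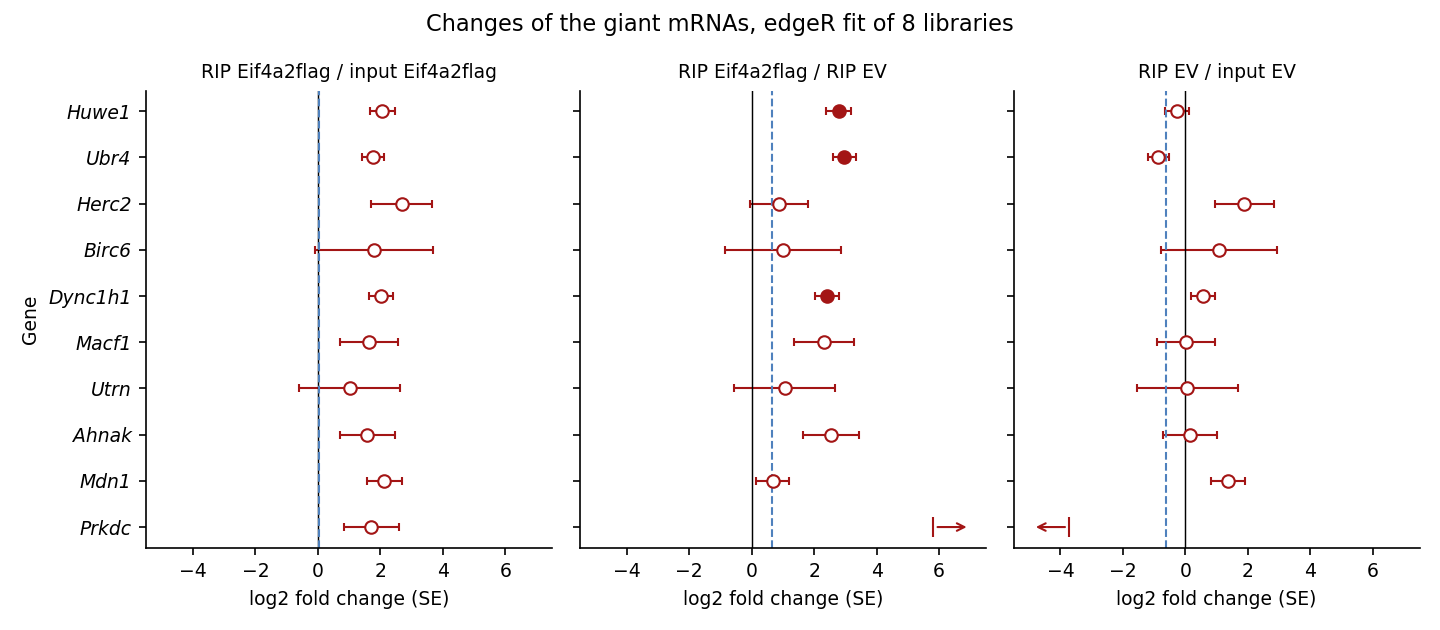
Log2 fold change of each giant mRNA in 3 comparisons, from the edgeR fit of 8 libraries; circles are estimates with standard errors, filled where the adjusted p was below 0.05, dashed lines mark the median of all tested genes, and arrows mark bounds for *Prkdc*, which had 0 reads in both RIP EV libraries. All 10 lay above 0 against input, and the filled circles against RIP EV are *Huwe1*, *Ubr4* and *Dync1h1*.

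RIP EV shows what the antibody and beads hold without Flag-tagged eIF4A2. Against it, *Huwe1*, *Ubr4*, *Dync1h1* and *Prkdc* were higher in RIP Eif4a2flag, and the other 6 did not pass. In this comparison 24.8% of all tested genes were called higher, 1827 of these 2664 being genes without a read in either RIP EV library. The median log2 fold change of the 10 was 2.36 and that of all tested genes 0.64. The RIP Eif4a2flag libraries are the same as in the comparison with input, so the 2 comparisons are not independent.

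In RIP EV, *Huwe1* counted 196 and 245 CPM, within the span of the EV inputs (334 and 180 CPM). RIP Eif4a2flag exceeded it by 2.78 on the log2 scale (standard error 0.40, adjusted p = 0.00662, edgeR). *Ubr4* counted 94.4 and 109 CPM there, below both EV inputs (205 and 159 CPM), and RIP Eif4a2flag exceeded it by 2.96 on the log2 scale (standard error 0.37, adjusted p = 0.00662, edgeR). *Dync1h1* counted 320 and 251 CPM there, above both EV inputs (202 and 182 CPM), and RIP Eif4a2flag exceeded it by 2.41 on the log2 scale (standard error 0.39, adjusted p = 0.00668, edgeR). For these 3 the RIP EV replicates lay close together. *Prkdc* had 0 reads in both RIP EV libraries, beside 84 and 10 reads in EV inputs. With a floor of 3 counts over both RIP EV libraries (0.557 CPM), it was at least 56.2-fold higher in RIP Eif4a2flag (adjusted p = 0.00759, edgeR), at least 34.9-fold without RIP EV replicate 1 and at least 21.3-fold without replicate 2. These floors cover counting error only. With only the 4 libraries compared, 0 of the 10 passed and the adjusted p of each of these 4 was 0.0650 (edgeR), and 0 of all tested genes passed. At an unadjusted p below 0.05, 4 of the 10 were higher in that fit, as were 2578 of 10754 tested genes.

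Of the other 6, all but *Mdn1* were unevenly covered in RIP EV. *Mdn1* counted 519 and 455 CPM there, more than in both EV inputs (237 and 134 CPM), and RIP Eif4a2flag exceeded it by a log2 fold change of 0.67 only (standard error 0.54). Levels in RIP EV were 22.0 and 172 CPM for *Herc2*, 175 and 0 CPM for *Birc6*, and 0 and 31.7 CPM for *Utrn*. For these 3 a single RIP EV library carried most or all reads, so the log2 fold changes of 0.87, 1.00 and 1.05 rest on 1 library each (standard errors of 0.93, 1.85 and 1.63). *Macf1* had 38.6 and 4.48 CPM there, *Ahnak* had 69.0 and 8.37 CPM, both low in replicate 2, with log2 fold changes to RIP Eif4a2flag of 2.31 and 2.53 (standard errors 0.95 and 0.91). DESeq2 on 8 libraries called these 2 besides the first 4, with 30.4% of tested genes called. The 2 groups of RIP libraries did not overlap, with RIP Eif4a2flag above, for 7 of 10 (all but *Herc2*, *Birc6* and *Mdn1*), against 46.7% of tested genes. On library size alone *Mdn1* joined them, against 51.9% of tested genes. Leaving out RIP EV replicate 1 raised the calls from 4 to 7 of 10, against 41.5% of tested genes, and leaving out replicate 2 to 8, against 58.1%.

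In the EV cells themselves, RIP against input separates antibody and bead background from abundance. The median log2 fold change of the 10 was 0.11, against −0.64 for all tested genes. *Prkdc* was the only one to pass, lower in RIP EV by at least 13.2-fold against the floor of 3 counts (adjusted p = 0.0136, edgeR; 26.3% of tested genes were called lower). The bound was at least 5.61-fold without input EV replicate 1 and at least 5.00-fold without RIP EV replicate 2. None of the 10 was called higher (4.5% of tested genes were), and DESeq2 also called none (1075 of 10754 tested genes). At an unadjusted p below 0.05, 1 of the 10 was higher in edgeR, as were 904 of 10754 tested genes. *Mdn1* and *Dync1h1* lay above both EV inputs in both RIP EV libraries (14.5% of tested genes did), with log2 fold changes of 1.36 and 0.56. *Ubr4* and *Prkdc* lay below (45.5% of tested genes did). The largest log2 fold change of the 10 was that of *Herc2*, at 1.89 (standard error 0.96), above that of 92.4% of tested genes. *Herc2* counted 22.0 and 172 CPM in RIP EV beside 32.2 and 18.1 CPM in EV inputs, so its value rests mainly on RIP EV replicate 2. *Birc6* was at 1.07 (standard error 1.86), with 0 reads in RIP EV replicate 2. With 4 libraries in the edgeR fit no call remained. At an unadjusted p below 0.05 the 10 had 1 higher and 1 lower, against 460 higher and 2715 lower of 10754 tested genes.

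The difference between the 2 cell lines in their RIP over input changes uses all 4 groups. It passed for *Huwe1*, at 2.32 on the log2 scale (standard error 0.54, adjusted p = 0.0264, edgeR), for *Ubr4*, at 2.63 (standard error 0.49, adjusted p = 0.0176), and for *Prkdc* (adjusted p = 0.0190), whose fitted size rests on 0 reads in RIP EV. Of all tested genes, 19.2% passed in this direction. *Dync1h1* missed the threshold at 1.45 (standard error 0.52, adjusted p = 0.111, edgeR), and the other 6 lay between 0.72 and 1.63. The median was 1.44 for the 10 and 0.64 for all tested genes. The 3 calls were lost when input EV replicate 1, either Eif4a2flag input or either RIP Eif4a2flag library was left out.

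The inputs of the 2 cell lines show the levels without the antibody. Between them 0 of 10 passed (adjusted p of 1.0 for each, edgeR), 0% of all tested genes were called higher, and DESeq2 called 0 of 10. At an unadjusted p below 0.05, 1 of the 10 was higher, as were 75 of 10754 tested genes. Log2 fold changes ran from −0.10 (*Mdn1*) to 1.11 (*Ahnak*), with a median of 0.30. *Ahnak* counted 32.6 and 37.1 CPM in EV inputs, and *Dync1h1* (log2 fold change 0.96) was the one with the unadjusted p below 0.05. With *Macf1* (22.3 and 20.3 CPM in EV inputs) these 3 lay above both EV inputs in both Eif4a2flag inputs, as 19.9% of tested genes did. In such bulk RNA, fewer expressing cells and less RNA per cell cannot be told apart.

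The 10 were not isolated among long transcripts. Across 10087 protein-coding genes the change from input to RIP Eif4a2flag was graded by coding length. The median log2 fold change was −0.28 below 1 kb (3238 genes), −0.03 from 1 to 2 kb, 0.42 from 2 to 3 kb, 0.78 from 3 to 5 kb, 1.15 from 5 to 9 kb (370 genes) and 1.66 at 9 kb or more (77 genes). Without the 10, the other 67 genes of the last class had a median of 1.58, and 64 of the 67 lay above 0. In edgeR on the 4 libraries compared, 64.9% of the last class and 1.24% of the first were called higher. As a description across genes, which are not independent replicates, Spearman's rank correlation of the change with coding length was 0.49, and it was 0.47 and 0.48 for the 2 RIP Eif4a2flag libraries taken singly. With the longest annotated transcript in place of the coding sequence it was 0.32. The rank correlation of the change with GC content was 0.18 and with input level −0.25.

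**Figure D3:**
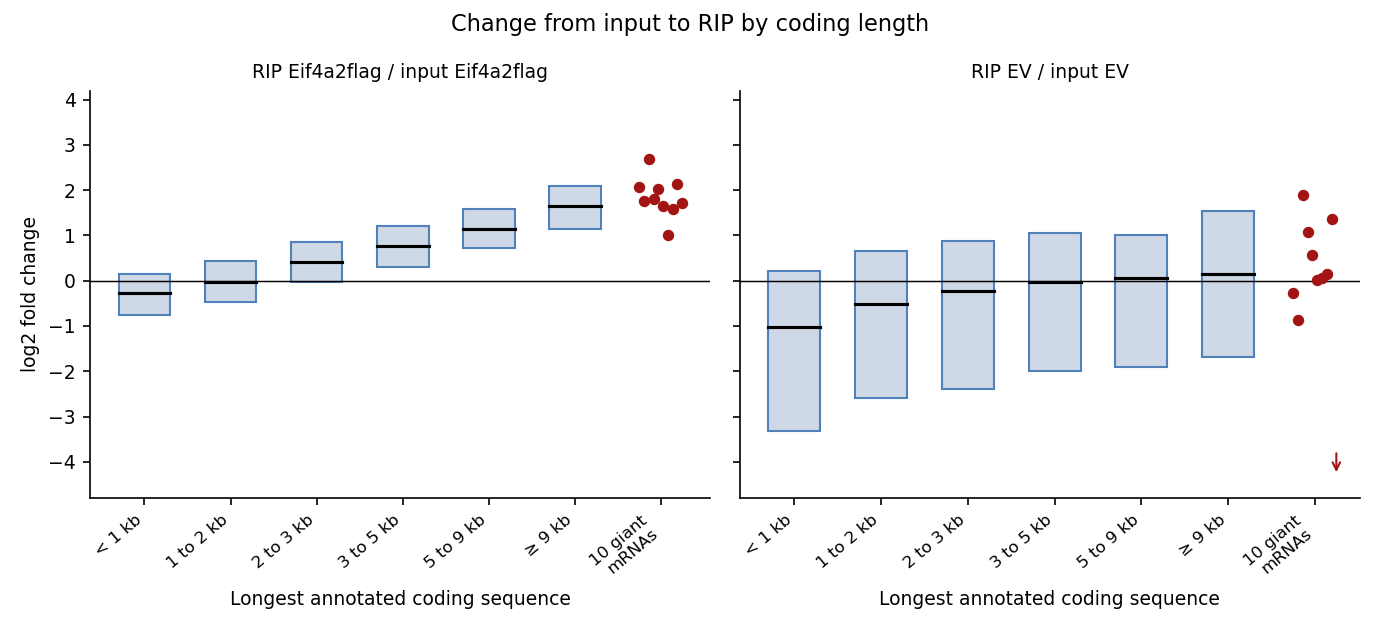
Log2 fold change from input to RIP in Eif4a2flag cells (left) and EV cells (right) by longest annotated coding sequence; boxes span the quartiles of tested protein-coding genes, bars are medians, red points are the 10 giant mRNAs, which the last class includes, and the arrow is the bound for *Prkdc*. Medians climbed from −0.28 to 1.66 on the left and from −1.02 to 0.15 on the right.

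A gradient of smaller rank correlation was also present without Flag-tagged eIF4A2. From input to RIP EV the medians went from −1.02 below 1 kb to 0.15 at 9 kb or more, with a rank correlation of 0.16 over all genes and of 0.26 over 5273 genes with a read in both RIP EV libraries (0.53 over the same genes in Eif4a2flag cells). For the difference between the cell lines the rank correlation was 0.02 (0.04 over the 5273 genes). Its class medians were 0.67 below 1 kb, 0.46 from 1 to 2 kb and 1.41 at 9 kb or more. For RIP Eif4a2flag against RIP EV the rank correlation was 0.05 (0.09 over the 5273 genes). The class medians there were 0.61 below 1 kb, 0.47 from 1 to 2 kb and 1.75 at 9 kb or more. Length also moved with differences inside a group. The log2 ratio of replicate 1 to replicate 2 had a rank correlation with coding length of 0.16 in input EV, 0.22 in input Eif4a2flag, 0.02 in RIP EV and −0.08 in RIP Eif4a2flag. The share of reads outside exons, given above, was lower in RIP Eif4a2flag than in inputs. Its part in the length gradient was not tested.

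Among the other 67 genes with coding sequences of at least 9000 bases, *Smg1*, a kinase of nonsense-mediated decay, had the largest log2 fold change from input to RIP Eif4a2flag at 3.29. It was followed by *Spen* at 3.12, a corepressor of transcription, and *Syne2* at 3.11, a nesprin of the nuclear envelope. The lowest were *Prune2* at −0.18, *Adgrv1*, an adhesion receptor, at −0.12, and *Dmd*, which encodes dystrophin and is the paralog of *Utrn*, at −0.09. *Adgrv1* has 18894 coding bases by its longest annotated coding sequence. Tags from the 3′ end do not tell which isoform of a gene was counted, so the length of the mRNA measured is not known. Levels of *Adgrv1* and *Dmd* were low, with means of 3.63 and 12.2 CPM in Eif4a2flag inputs.

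The partners of the giant proteins, most of them encoded by far shorter mRNAs, differed among each other. Counts in the following are from edgeR on the 4 libraries of RIP Eif4a2flag and its input, where 8.44% of tested genes were called higher and 8.46% lower. In the fit of 8 libraries none of the listed genes was called, and at an unadjusted p below 0.05 the counts higher were 0 of 22 dynein and dynactin genes, 0 of 16 ribosome assembly genes, 1 of 10 end joining genes and kinases, 7 of 26 ubiquitin enzymes, 4 of 17 scaffold genes, 11 of 25 chromatin regulators and 19 of 67 other giant genes. Over all tested genes that count was 331 of 10754. DESeq2 on 8 libraries called 0, 0, 2, 4, 2, 6 and 13 of these lists higher, in the same order, against 2.55% of tested genes. Of 22 tested dynein and dynactin genes (median coding length 1082 bases), 2 were higher and 1 lower, with a median log2 fold change of −0.04. The highest was *Dctn1* at 2.40, the large dynactin subunit and the longest of the list, and the lowest was *Capzb* at −1.08, an actin capping subunit. Of 16 assembly factors of the large ribosomal subunit, 0 were higher and 1 lower, with a median of −0.27. At an unadjusted p below 0.05, 4 of the 16 were higher, as were 1863 of 10754 tested genes. Their range was from −0.95 for *Nvl*, an AAA ATPase, to 0.87 for *Bop1*, and *Mdn1* lay above all of them at 2.13.

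The other lists had medians above 0. The 10 tested end joining genes and kinases related to *Prkdc* had a median of 0.70, and 3 were higher. Their highest was *Smg1*, and their lowest was *Nhej1*, a ligation factor with 495 coding bases, at −0.24. Of 26 tested ubiquitin ligases and conjugating enzymes 11 were higher, with a median of 0.88. They reached from *Itch* at −0.57 to *Herc1*, a giant relative of *Herc2*, at 2.52. Of 17 tested spectraplakin, dystrophin complex and scaffold genes 6 were higher, with a median of 0.25. Here *Plec*, the cytolinker plectin with 14073 coding bases, lay at 2.61. Of 25 large chromatin regulators 16 were higher, with a median of 1.40, from *Setd1b* at −0.05 to *Spen*. None of these 4 lists had a gene called lower by edgeR or by DESeq2. At an unadjusted p below 0.05 in edgeR, 1 scaffold gene was lower, as were 1800 of 10754 tested genes. The lists share genes with the class of 67.

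**Figure D4:**
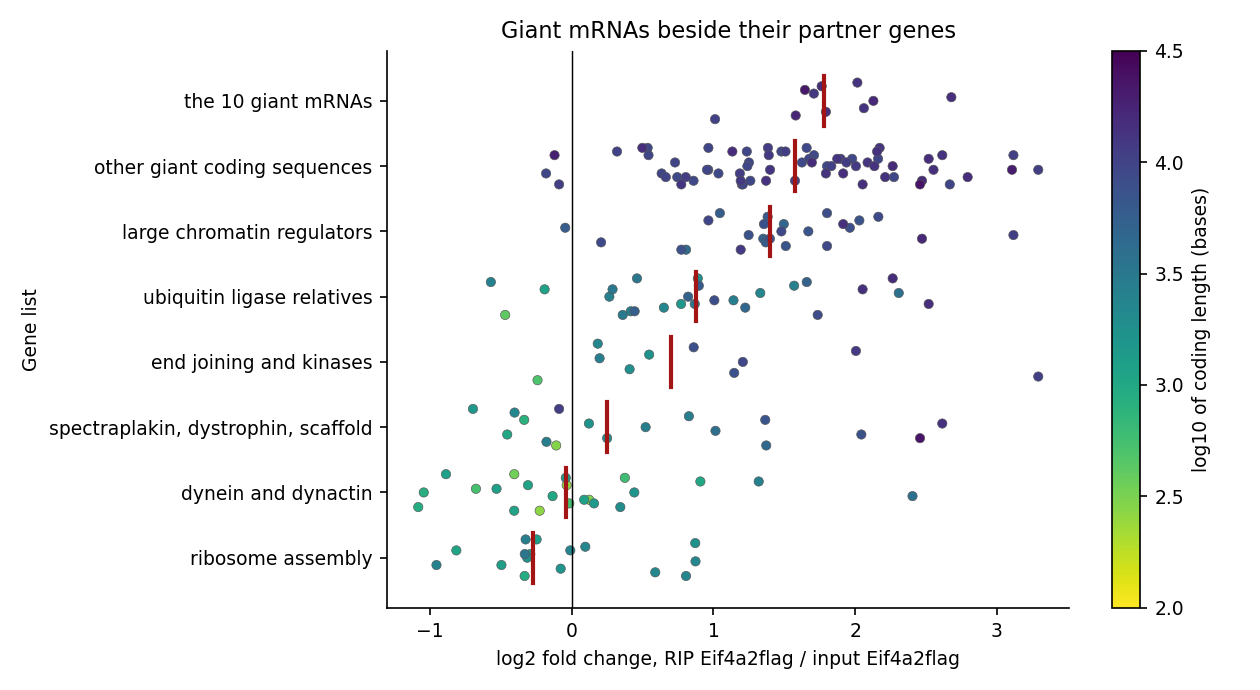
Log2 fold change from input to RIP Eif4a2flag (edgeR fit of 8 libraries) for the 10 giant mRNAs and 7 gene lists; each point is a gene, its colour is the log10 of its longest coding sequence in bases, and red bars are list medians. Medians ran from −0.27 for ribosome assembly to 1.78 for the 10.

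Against RIP EV the partner lists split differently, in the fit of 8 libraries (24.8% of tested genes called higher and 5.46% lower). Of the ribosome assembly genes 0 were higher and 4 lower, while *Mdn1* had a log2 fold change of 0.67. The 4 were *Pelp1* (log2 fold change −1.88), *Rbm28* (−1.72), *Gnl2* (−1.69) and *Pes1* (−1.34). DESeq2 called 1 of this list higher and 8 lower, against 3270 and 1128 of 10754 tested genes. At an unadjusted p below 0.05 edgeR had 1 higher and 8 lower, against 3205 and 1019 of tested genes. Of the dynein and dynactin genes 3 were higher and 1 lower. The light chain gene *Dynlt3* had 0 and 4 reads in RIP EV, *Dctn2* had a log2 fold change of 2.21, *Dync1li1* of 1.77 and *Ndel1* of −2.72. Of the ubiquitin enzymes 3 of 26 were higher, among them *Herc4* at 1.54, where DESeq2 called 9. Of the end joining genes and kinases 2 of 10 were higher, *Trrap* at 2.40 and *Mtor*, which had 0 and 1 reads in RIP EV. Of the spectraplakin, dystrophin complex and scaffold genes 5 of 17 were higher and 1 lower, and of the large chromatin regulators 6 of 25 were higher (11 by DESeq2) and 1 lower. The former included *Clasp1* (0 and 6 reads in RIP EV), *Dtnb* (0 and 3 reads) and *Dag1* (log2 fold change 3.54). The latter were led by *Arid1b* (0 and 3 reads in RIP EV), *Ep300* (1 and 32 reads), *Nsd1* at 2.99 and *Arid1a* at 2.27. Of the other 67 giant genes 19 were higher and 0 lower, and 14 of these 19 had 0 reads in both RIP EV libraries.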

How the data were processed

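The 8 RIP-seq libraries of mouse ESCs (2 per group) were analysed. Per the labels and the paper, the authors made QuantSeq 3′ tag libraries, trimmed the reads, mapped them to mm10 with STAR (2.5.3a) and counted them per gene with HTSeq (0.11.2). The deposited values are raw counts; the sources used here give neither the annotation release nor the strand setting. Of 52550 gene rows, 52403 matched GENCODE release 21 for mouse (GRCm38) by identifier. The 5 summary lines stayed out of totals and tests, which left 19.9% to 68.2% of the reads of a library.

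Genes that reached 1 CPM in each of the 4 inputs entered 1 edgeR model (4.0.16; R 4.3.3; limma 3.58.1) of 8 libraries with TMM factors, quasi-likelihood tests and Benjamini-Hochberg adjustment over all 10754 genes at 0.05. CPM in the text is on the total of gene reads; statements that libraries lie above one another used TMM-scaled CPM. With TMM the median log2 fold change of all tested genes was 0.02 against input and 0.64 against RIP EV, and with library size 0.32 and 0.91. Alternatives were other scalings, DESeq2 (1.42.0), fits of the 4 libraries compared, other filters, thinning, a replicate block, omission of *Gm42418* and of each library, and, added after seeing the data, of the RIP EV group. A floor of 3 counts bounds genes without reads.

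The 10 transcripts and all gene lists were chosen with earlier results of these data known. All 10 are named in every comparison, with up to 4 genes of each list that passed, by size of change, otherwise its highest and lowest against input, and the 3 highest and 3 lowest other giant genes. Some genes that this rule names are not reported here. *Gm17111* and the genes with overlapping exons are named for their position.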

Additional observations from a re-analysis of the deposited data

Results flagged for a closer look

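The change from input to RIP was larger in Eif4a2flag than in EV cells for 3 of the 10 giant mRNAs, by a test of the difference itself (edgeR's quasi-likelihood test, Benjamini-Hochberg adjustment), against 19.2% of all tested genes in the same direction. None of the 10 was called in 5 of the 8 refits that left out 1 library. The difference was 2.32 on the log2 scale for *Huwe1* and 2.63 for *Ubr4*, and in both genes each RIP Eif4a2flag library lay above all inputs while the RIP EV libraries did not. For *Prkdc* the fitted difference was 10.36, which rests on 0 reads in both RIP EV libraries and is not a measured size.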

How the results depend on the processing

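All 10 giant mRNAs stayed above 0 in RIP Eif4a2flag against input in each of 18 refits (180 of 180 values of single genes). These refits drew on the same 8 libraries. The median of the 10 ran from 1.52 to 2.10. The number that passed moved from 0 to 4 with DESeq2 (2.55% of tested genes called higher) and to 3 without a filter (share not given here). It moved to 10 with only the 4 libraries compared (8.44%) and to 9 without the RIP EV group (7.32%). With only the 4 libraries compared it fell to 0 against RIP EV (from 4) and to 0 in RIP EV against input EV (from 1). In each of these fits 0 of all 10754 tested genes were called. Leaving out 1 library gave 0 to 9 calls against input, 4 to 8 against RIP EV, 1 to 6 in RIP EV against input EV, 0 to 7 in the difference between cell lines, and 0 to 0 between inputs. In RIP EV against input EV, the log2 fold change turned to −2.30 for *Macf1*, −2.09 for *Ahnak* and −11.26 for *Birc6* without RIP EV replicate 1, and to −9.70 for *Utrn* without replicate 2, where *Birc6* and *Utrn* were left with 0 reads in RIP EV and have no measured size. Omission of the other RIP EV library gave 0.80, 0.94, 2.00 and 1.03 for these genes. Of 860 refitted values of single genes, 734 kept direction and side of the threshold, 20 lost and 69 gained a call, and 37 changed sign, none of them called in the fit reported. Of these 37, 20 were in RIP EV against input EV, 14 between inputs and 3 in the difference between cell lines. The 20 include values that were called in refits with a single RIP EV library, for *Macf1*, *Ahnak*, *Birc6* and *Utrn*. In RIP EV against input EV, *Macf1* turned to −0.023 with only the 4 libraries compared, −0.0609 with filterByExpr, −0.15 without a filter and −0.24 with the replicate block. *Ahnak* turned to −0.0124 and *Utrn* to −0.0085 without a filter, and to −0.0251 and −0.28 with the block. Between inputs, *Prkdc* turned to −0.022 with only the 4 libraries compared and to −0.022 without the RIP EV group. With 1 library left out, RIP EV against input EV ran from −0.69 to 0.35 for *Huwe1* and from −0.28 to 2.69 for *Herc2*. Between inputs it ran from −0.64 to 1.39 for *Prkdc*, −0.32 to 0.66 for *Herc2*, −0.58 to 0.47 for *Mdn1*, −0.18 to 0.97 for *Birc6* and −0.27 to 0.62 for *Utrn*. The difference between cell lines ran from −0.0061 to 3.00 for *Herc2*, −0.16 to 13.05 for *Birc6* and −0.013 to 10.75 for *Utrn*, the upper ends of the last 2 resting on 0 reads in RIP EV. The cause of these changes was not tested, beyond the libraries left out. With transcript length in place of coding length the rank correlation of the change was 0.32. RefSeq protein length was not run. Same-numbered replicates did not pair (correlations of deviations of −0.03 to 0.13). With the replicate number as a block 0 passed against input, 4 against RIP EV and 3 in the difference, as many as in the fit reported. The share of all tested genes in that fit is not given here. Depth limits RIP EV, where 3 counts over both libraries are 0.557 CPM.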
